A study of Homo sapiens with 40 samples.

Results

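Genes of chromosome 21 that are tied to 45S ribosomal DNA by their annotated span or by an identical copy within it were followed through cell extracts of the human embryonic stem cell line H1. They are 4 of the 57939 genes listed for total RNA, namely the long non-coding RNA genes FP236383.3 and FP671120.4 and the microRNA genes MIR3648-2 and CR392039.1. They were chosen by name because earlier results of these data had shown them high in the nuclear and pellet extracts, so their levels across extracts are described here without a test. All cells were wild type. Undifferentiated cells (day 0) were compared with cells differentiated towards mesoderm for 3 or 5 days, which received BMP4 for 1 day and bFGF from then on, in a serum medium with ascorbic acid and monothioglycerol. A kit with a buffer for each step gave the cytoplasmic extract (CE), the membrane extract (ME), the soluble nuclear extract (SNE), the chromatin-bound extract (CBNE, which micrococcal nuclease released) and the extract of the last pellet (PE). INPUT libraries were read as unfractionated RNA. Each of the 18 groups of day and kind had 2 total RNA libraries, 36 in all. The 4 polyA libraries were from day 0 cells only, with 2 for the cytoplasm and 2 for the nucleus. The labels do not say that the 2 libraries of a group came from separate cultures, so the p-values below measure the spread between these libraries, which may be technical.

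Ribosomal RNA is made by RNA polymerase I in the nucleolus as a long precursor, the 45S pre-rRNA, which carries the 18S, 5.8S and 28S rRNAs between transcribed spacers. The spacers are cut away and degraded, and the unit is repeated many times on the short arms of several chromosomes with an intergenic spacer between copies. Small nucleolar RNAs such as U3 act in the first cuts, within the 5′ external transcribed spacer ahead of 18S rRNA.

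All 4 genes have GENCODE 29 models on GRCh38, on the plus strand of chromosome 21. FP236383.3 (ENSG00000280441) lies at chr21:8380665-8410645 and FP671120.4 (ENSG00000278996) at chr21:8197620-8227646. Each has 7 exons that sum to 2498 bases, and the spliced sequences of both are identical base for base. FP236383.3 spans the 45S transcript RNA45SN3 within its second intron, and none of its exons overlaps it. Its exon 2 ends 4937 bases before the 45S start and its exon 3 begins 3617 bases after the 45S end. FP671120.4 is laid out in the same way around RNA45SN2, with gaps of 4936 and 3659 bases. The exons of both genes therefore lie outside every annotated 45S transcript.

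**Figure D1:**
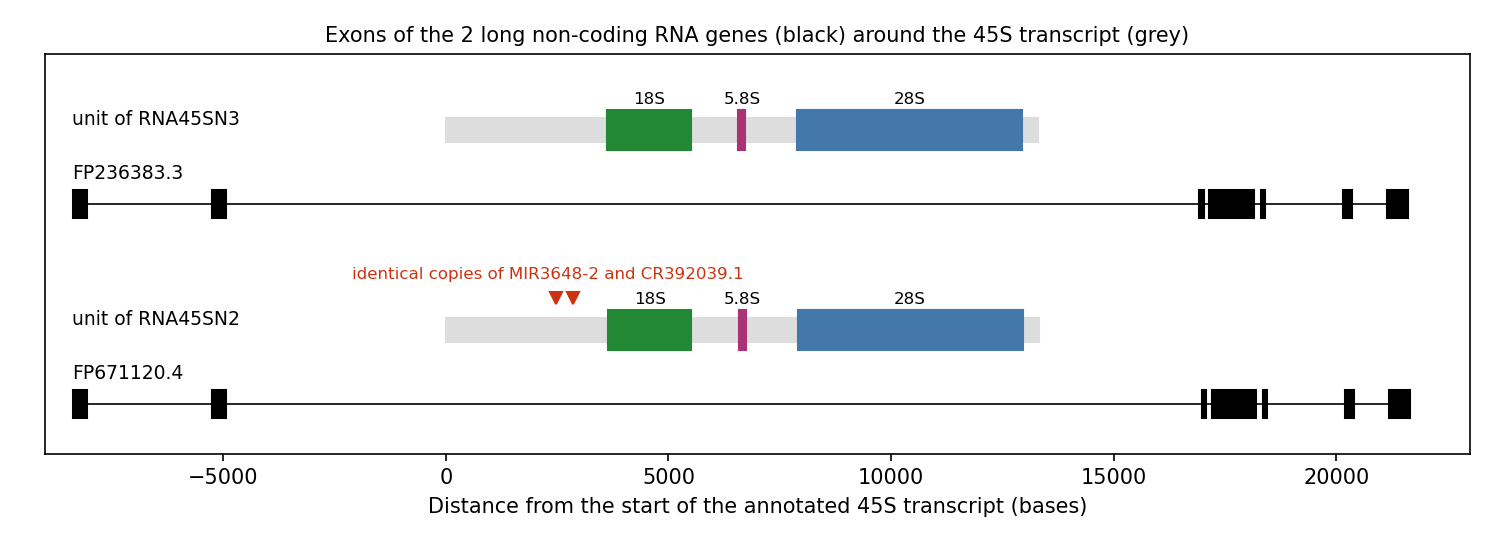
Map of the units of RNA45SN3 and RNA45SN2, with distance from the start of the annotated 45S transcript in bases on the horizontal axis, the 45S transcript in grey with its 18S, 5.8S and 28S parts coloured, exons of FP236383.3 and FP671120.4 as black boxes, and red triangles at the identical copies of the microRNA genes. All 7 exons of each long non-coding RNA gene lie outside the 45S transcript, and both triangles lie ahead of 18S.

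MIR3648-2 (ENSG00000264462) is a single exon of 180 bases at chr21:8986999-8987178. CR392039.1 (ENSG00000264063) is a single exon of 61 bases at chr21:8987370-8987430, and GENCODE 29 names that identifier MIR3687-2. Both lie outside every annotated 45S transcript, with MIR3648-2 540427 bases past the end of RNA45SN1. Each is identical over its whole length to a gene inside RNA45SN2. The copy of MIR3648-2, MIR3648-1, starts 2485 bases after the 45S start and ends 979 bases before 18S rRNA. The copy of CR392039.1 starts 2856 bases after the 45S start and ends 727 bases before 18S. Both copies thus lie in the 5′ external transcribed spacer, and both were listed at 0 in all 36 libraries. The label of genes within 45S units therefore holds by sequence for the microRNA genes, and by span for the long non-coding RNA genes.

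The sequences below are that of CR392039.1 and a part of the exonic sequence of FP236383.3, whose reads may also match its other exons. CR392039.1 is printed whole, with its longest run of CG in capitals. Exon 3 of FP236383.3 is the first exon downstream of the 45S transcript, and the stretch of exon 4 holds a run of 16 CTC units in capitals. On the plus strand of GRCh38 exon 3 lies at chr21:8405960-8406056 and the stretch of exon 4 at chr21:8406459-8406586. All are from GENCODE 29 transcripts.
CR392039.1: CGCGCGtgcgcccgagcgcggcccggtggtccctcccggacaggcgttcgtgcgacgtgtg
FP236383.3 exon 3: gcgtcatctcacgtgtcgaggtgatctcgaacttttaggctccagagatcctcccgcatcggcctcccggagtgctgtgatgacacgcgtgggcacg
FP236383.3 exon 4 stretch: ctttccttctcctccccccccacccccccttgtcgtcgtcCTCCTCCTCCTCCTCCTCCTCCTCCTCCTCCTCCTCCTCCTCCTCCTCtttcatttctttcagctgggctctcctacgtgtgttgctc

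MIR3648-2 is 83.9% G and C and CR392039.1 78.7%, against a median of 46.3% over 35466 genes with a single transcript. The long non-coding RNA genes are at 55.0%.

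Of 18 other genes listed between the first and the last of the annotated units, 17 were at 0 in every total RNA library. They include 6 microRNA genes, 4 genes of the class misc_RNA and 4 long non-coding RNA genes. The exception was RNA5-8SN1, a copy of 5.8S rRNA, which was above 0 in 24 of 36 libraries and reached 831 TPM. The labels do not say whether ribosomal RNA was removed before sequencing. A gene of identical copies that is listed at 0 while its copy is not was common in the table. Among 45 sets of single-transcript genes with identical sequence and any signal, 30 (66.7%) had exactly 1 gene above 0. Which copy holds the reads is therefore not read from these values.

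Depth, here of reads assigned to listed genes, was estimated from the TPM that 1 read on a 1 kb transcript would give. That value was 0.707 to 1.81 TPM in INPUT, CE, ME and SNE libraries, 13.8 to 61.8 in CBNE and 3.37 to 30.8 in PE. CBNE and PE libraries thus held fewer such reads after division by gene length. Reads not assigned to a listed gene do not enter this value, so the number of reads sequenced is not known from it. In INPUT the mesoderm factor TBXT went from 0.911 ± 0.210 TPM (SD, n = 2) on day 0 to 66.3 ± 0.742 on day 5, and the pluripotency factor NANOG from 224 ± 3.52 to 51.2 ± 5.02. Another pluripotency marker, SOX2, was listed at 0 in every library, which is not read as absence from the cells. Why it was at 0 was not tested. GATA3, a marker of trophoblast and amnion, went from 0.146 ± 0.0477 to 96.7 ± 0.633 TPM, and the endoderm marker SOX17 from 0.695 ± 0.617 to 27.0 ± 4.27. In bulk samples, fewer cells of a type and less RNA per cell cannot be told apart.

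All 4 genes were far higher in CBNE and PE than elsewhere. In the 12 CBNE and PE libraries FP236383.3 ranged from 2066 to 38821 TPM, against 28.5 to 246 in the other 24 libraries. FP671120.4 ranged from 2746 to 49448 TPM against 6.16 to 190. The short gene CR392039.1 ranged from 2485 to 80627 TPM against 0 to 481. MIR3648-2 ranged from 299 to 27731 TPM against 0 to 208, and its lowest CBNE or PE library was 1.44 times its highest other library. These groups of libraries did not overlap for any of the 4 genes. Among all 24735 genes tested, 0.764% had every CBNE and PE library above every other library. The 4 genes were chosen for this pattern, so nothing is read from that comparison.

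**Figure D2:**
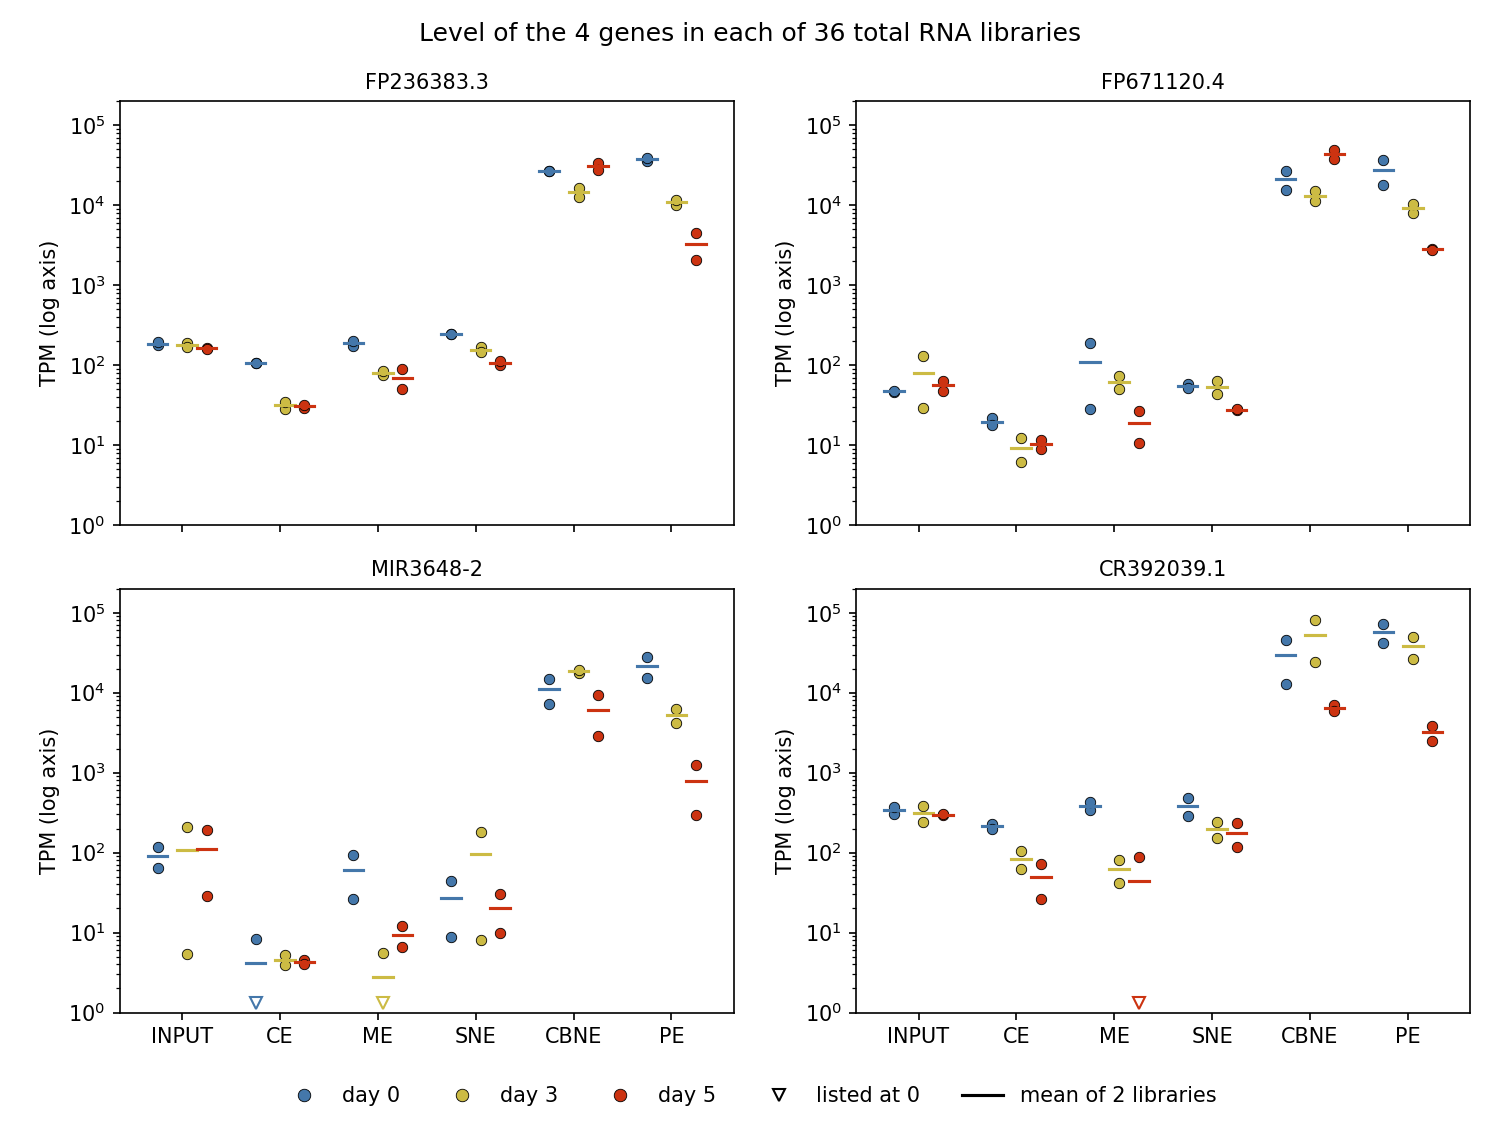
TPM of each gene on a log axis in the 36 total RNA libraries, by kind of library, with points for libraries coloured by day, short lines for the mean of 2 libraries, and open triangles for libraries listed at 0. CBNE and PE points lie above all others for each gene, PE points fall from day 0 to day 5, and INPUT points of FP236383.3 stay between 160 and 194.

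The genes were among the highest of the whole table in CBNE and PE. FP236383.3 ranked 5 to 8 among all genes in CBNE libraries and 5 to 37 in PE libraries, compared with 622 to 739 in INPUT. CR392039.1 ranked 1 in replicate 2 of day 3 PE, at 49947 TPM, and 2 in replicate 2 of day 3 CBNE, at 80627 TPM. FP671120.4 ranked 4 in both day 5 CBNE libraries, at 49448 and 37673 TPM.

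The summed share of the 4 genes in a library's TPM shows the same in percent. In INPUT it was 0.0645% and 0.0686% on day 0, 0.0913% and 0.0447% on day 3, and 0.0552% and 0.0713% on day 5. In CBNE the shares were 7.04% and 10.7%, then 7.36% and 12.4%, then 9.95% and 7.43% on days 0, 3 and 5. In PE they were 11.2% and 17.7% on day 0, 4.87% and 7.84% on day 3, and 1.26% and 0.762% on day 5. The INPUT and CBNE shares of the 3 days overlapped, and the PE shares did not. TPM divides reads by gene length, so the 61 bases of CR392039.1 turn few reads into a large share. The 80627 TPM of CR392039.1 in replicate 2 of day 3 CBNE stand for 356 reads, whereas 27652 TPM of FP236383.3 in replicate 2 of day 5 CBNE stand for 1334.

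**Figure D3:**
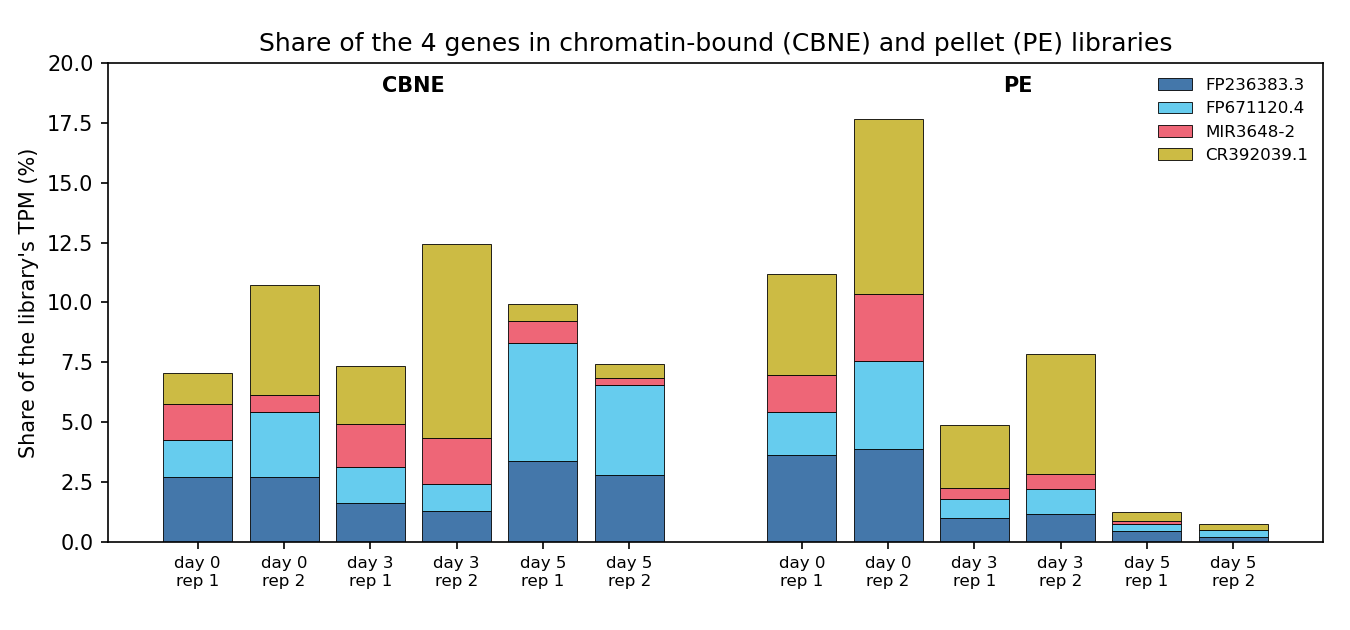
Share of each library's summed TPM in percent, stacked by gene, for the 6 CBNE and 6 PE libraries with 1 bar per library. PE bars go from 11.2% and 17.7% on day 0 to 1.26% and 0.762% on day 5, while CBNE bars lie between 7.04% and 12.4%, with FP671120.4 the largest part on day 5.

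FP236383.3 and FP671120.4 cannot be told apart by exonic sequence, yet their TPM differed. FP236383.3 was the higher in 33 of 36 libraries, and its ratio to FP671120.4 ran from 0.679 to 6.11 with a median of 2.72. In INPUT, CE, ME and SNE the ratio was above 1 in 24 of 24 libraries, with a median of 3.51. In CBNE and PE it was above 1 in 9 of 12 libraries, with a median of 1.11, and it was under 1 in both day 5 CBNE libraries. How the authors shared reads between identical genes is not given in the sources used here, so the comparisons of days were also made on the sum of both.

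In the 2 groups where FP671120.4 differed most between its libraries outside CBNE and PE, the sum differed less. In day 3 INPUT, FP671120.4 stood at 132 TPM in replicate 1 and 29.5 in replicate 2, and the sum at 319 and 197. In day 0 ME, FP671120.4 stood at 28.1 and 190 TPM and the sum at 200 and 393.

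**Figure D4:**
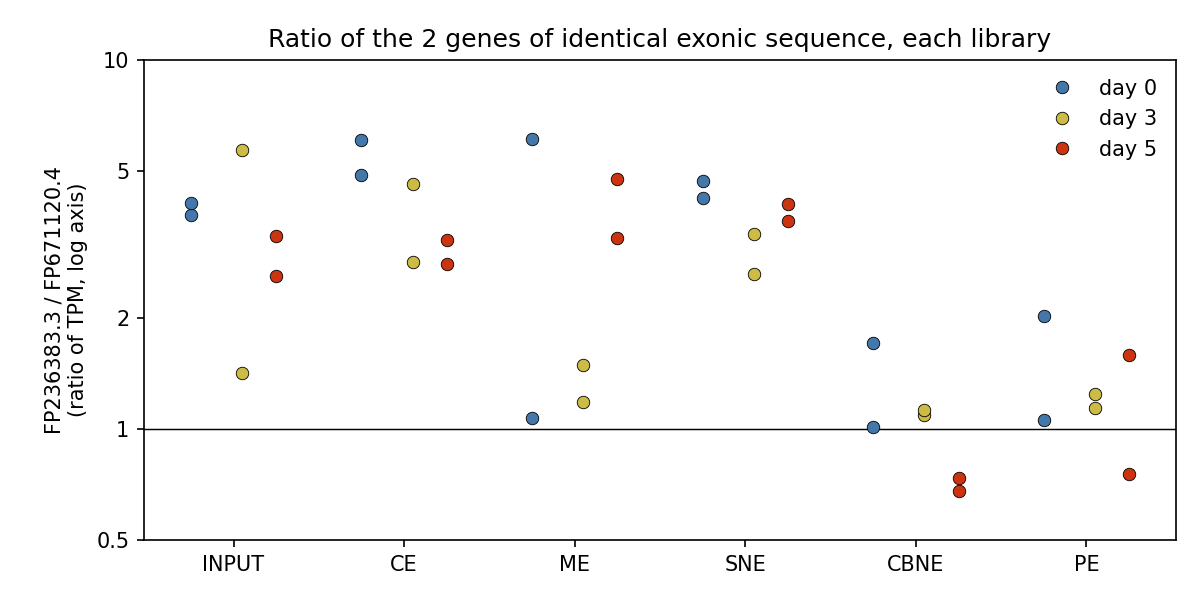
Ratio of the TPM of FP236383.3 to that of FP671120.4 on a log axis for each of the 36 libraries, by kind of library and coloured by day, with a line at 1. Ratios of INPUT, CE, ME and SNE libraries all lie above 1, and the lowest, 0.679, is a day 5 CBNE library.

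The following comparisons between days were made within 1 kind of library. Differences are of mean log2(TPM + 1) ± standard error from limma fitted over all 24735 genes, with Benjamini-Hochberg adjusted p-values, and a gene was called at an adjusted p under 0.05 and a log2 difference of at least 1 in size. The comparisons of day 3 and day 5 share the day 0 libraries of their kind. The levels that chose the genes include these libraries. Mean TPM in day 0 PE ranked 1 or 2 among the 18 groups for each gene. A fall from there is therefore favoured by the choice, and the p-values do not allow for it.

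Unfractionated RNA showed no called change in any of the 4 genes. FP236383.3 stood at 177 and 194 TPM on day 0, 187 and 168 on day 3, and 165 and 160 on day 5. These values overlap between days 0 and 3, and the day 5 libraries lie just below. Its log2 difference from day 0 was -0.06 ± 0.26 on day 3 and -0.19 ± 0.26 on day 5 (limma adjusted p = 1 and 0.735), and that of the sum of both long non-coding RNA genes was 0.11 ± 0.31 and -0.09 ± 0.31 (limma adjusted p = 0.975 and 0.956). FP671120.4 stood at 46.5 and 47.4 TPM on day 0, 132 and 29.5 on day 3, and 63.4 and 48.2 on day 5. CR392039.1 stood at 301 and 376, 380 and 241, and 291 and 305 TPM on the 3 days, from 15 to 30 reads per library. MIR3648-2 varied more within a day than between days. It stood at 116 and 63.8 TPM on day 0, at 208 and 5.44 on day 3 from 34 reads and 1 read, and at 29.03 and 194 on day 5.

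By limma, 0 of the 4 genes were called in INPUT on day 3, where 7.44% of all genes were called in either direction, and 0 on day 5, where 12.8% were. Between day 5 and day 3, 0 were called, against 4.81% of all genes. At an unadjusted p under 0.05 the count was also 0 in each of these 3 comparisons. The standard errors were 0.26 for FP236383.3, 0.67 for FP671120.4, 1.51 for MIR3648-2 and 1.20 for CR392039.1, wide for all but the first. They pool the spread over all 36 libraries, so they are not the spread of INPUT libraries alone. In this fit a change of the size called would be hard to detect in the other 3. With INPUT libraries alone in the fit, 0 of the 4 genes were called in each of these 3 comparisons. The share of all genes called in that fit is not given here.

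In the pellet extract all 4 genes were lower on day 5 than on day 0. FP236383.3 stood at 36158 and 38821 TPM on day 0, 10002 and 11688 on day 3, and 4557 and 2066 on day 5. Each day's libraries lie apart from those of the other days. The log2 difference from day 0 was -1.79 ± 0.26 on day 3 and -3.61 ± 0.26 on day 5 (limma adjusted p = 8.2e-06 and 2.98e-10), and the day 5 mean was 8.83% of the day 0 mean. FP671120.4 stood at 17872 and 36656 TPM on day 0, 8018 and 10233 on day 3, and 2877 and 2746 on day 5. Its difference was -1.50 ± 0.67 on day 3, which was not called (limma adjusted p = 0.0739), and -3.19 ± 0.67 on day 5 (limma adjusted p = 3.88e-04). The sum of both genes fell by 1.68 and 3.42 on the log2 scale (limma adjusted p = 1.61e-04 and 1.36e-08).

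The microRNA genes went the same way in PE by day 5. MIR3648-2 stood at 15392 and 27731 TPM on day 0, 4183 and 6287 on day 3, and 1252 and 299 on day 5, from at least 16 reads in each library. Its difference on day 5 was -5.07 ± 1.51 (limma adjusted p = 0.00766). CR392039.1 stood at 42086 and 72737 TPM on day 0, 26308 and 49947 on day 3, and 3871 and 2485 on day 5. On day 3 its libraries overlapped those of day 0, and on day 5 the difference was -4.16 ± 1.20 (limma adjusted p = 0.00597). The read number of CR392039.1 in day 5 PE was 44 in replicate 1 (exact Poisson interval at 95% confidence 32.0 to 59.1) and 45 in replicate 2 (32.8 to 60.2). These intervals cover counting error only.

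By limma, 1 of the 4 genes was lower in PE on day 3, where 3.77% of all genes were called lower, and 4 of 4 were lower on day 5, where 6.94% were. With PE libraries alone in the fit, 4 of 4 were again lower on day 5, at limma adjusted p of 0.00329 to 0.00717. With weights for each kind of library in limma, which allow PE libraries a wider spread, FP236383.3 alone was called on day 5 (limma adjusted p = 9.67e-06). Under these weights FP671120.4, MIR3648-2 and CR392039.1 were not called (limma adjusted p = 0.215, 0.447 and 0.359). The share of all genes called lower is not given here for the fit of PE alone or for the weights. Without replicate 2 of day 0 PE or replicate 2 of day 5 PE the call of MIR3648-2 was lost (limma adjusted p = 0.0508 and 0.0882).

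Other RNA moved in the same PE libraries. The median difference over all genes in PE was 0.47 on day 3 and 0.59 on day 5, and 31.2% of genes were called higher on day 5 and 6.94% lower. The cytoplasmic mRNAs GAPDH and RPLP0 went from 1091 to 2163 and from 504 to 2109 TPM in PE between day 0 and day 5, and the nuclear RNAs MALAT1 and NEAT1 from 3150 to 12851 and from 49.0 to 1214. Depth in PE differed by day as well, since 1 read on a 1 kb transcript was worth 25.4 to 30.8 TPM on day 0 and 3.37 to 5.37 on day 5. FP236383.3 had 3147 to 3553 reads there on day 0, 3783 to 4025 on day 3 and 1532 to 2121 on day 5. After quantile normalisation the day 5 differences of the 4 genes were between -4.57 and -2.75 and all 4 were called. Under that scaling 3935 of all 24735 genes were called lower, against 1716 in the main fit. Library numbers in the labels jump between the 2 ME libraries of day 5, so all day 5 SNE, CBNE and PE libraries carry later numbers than the rest. What the jump marks is not stated, and in those extracts it cannot be told apart from day 5. The part of the shifts in other RNA and in depth was not tested.

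**Figure D5:**
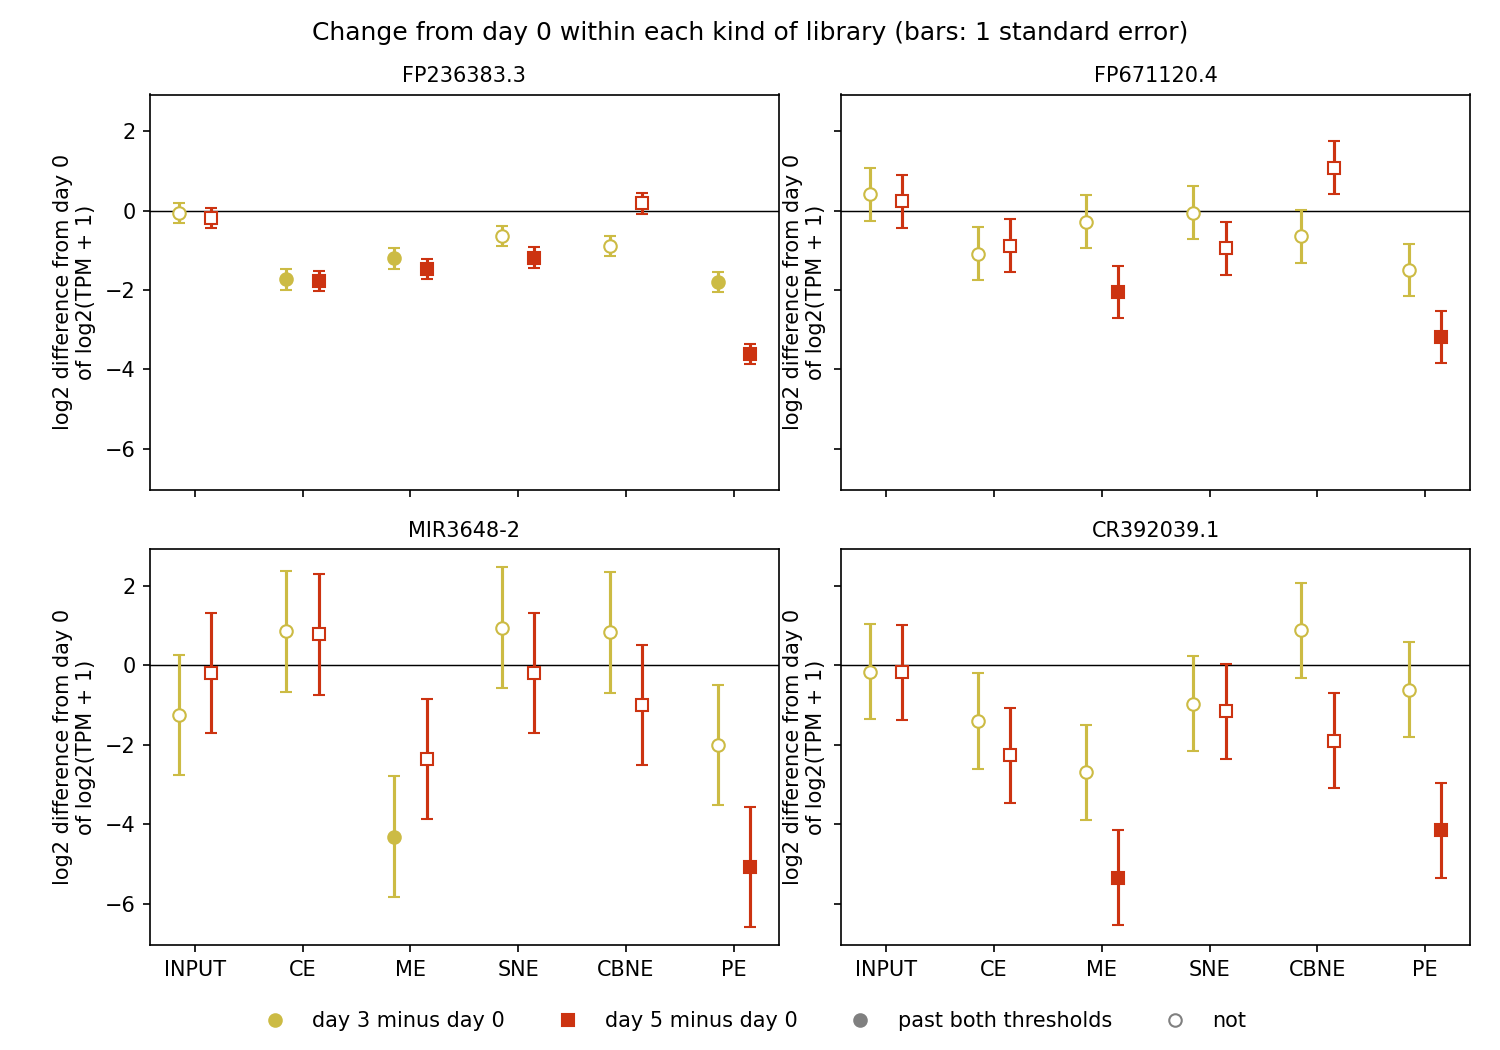
Difference of mean log2(TPM + 1) from day 0 (vertical axis) on day 3 (circles) and day 5 (squares) within each kind of library, with bars of 1 standard error, filled where both thresholds were passed. In PE on day 5 all 4 markers are filled and lie between -3.19 and -5.07, in INPUT none is filled, and in CBNE none is filled.

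Chromatin-bound RNA showed no called change. In CBNE, FP236383.3 stood at 26750 and 27076 TPM on day 0, 16303 and 12766 on day 3, and 33552 and 27652 on day 5. The day 3 libraries were the lowest, with a difference of -0.90 ± 0.26 (limma adjusted p = 0.00905) that stayed short of the required size. FP671120.4 stood at 15605 and 26738 TPM, then 14979 and 11353, then 49448 and 37673 on the 3 days. Its day 5 libraries were the highest of all 36, and the difference of 1.08 ± 0.67 was not called (limma adjusted p = 0.233). The sum of both differed by -0.80 ± 0.31 on day 3 and 0.63 ± 0.31 on day 5, neither called (limma adjusted p = 0.0555 and 0.129). CR392039.1 stood at 12719 and 45779, 24540 and 80627, and 7097 and 5944 TPM, the last from 7 reads in each library. MIR3648-2 stood at 14805 and 7211, 17567 and 19265, and 9277 and 2877 TPM.

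By limma, 0 of 4 genes were called in CBNE on day 3, against 20.3% of all genes in either direction, and 0 on day 5, against 23.8%. At an unadjusted p under 0.05 the counts were 1 and 0. Without replicate 1 of day 3 CBNE, FP236383.3 was called lower on day 3 (-1.08, limma adjusted p = 0.0130).

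In the soluble nuclear extract, FP236383.3 was lower on day 5. It stood at 242 and 246 TPM on day 0, 168 and 146 on day 3, and 100 and 114 on day 5, with no overlap between days. The difference was -0.64 ± 0.26 on day 3 and -1.18 ± 0.26 on day 5 (limma adjusted p = 0.0672 and 9.98e-04). FP671120.4 stood at 57.4 and 52.3, 63.7 and 43.2, and 27.4 and 28.2 TPM, and its day 5 difference of -0.95 ± 0.67 was not called (limma adjusted p = 0.315). The sum of both was lower on day 5, at -1.14 ± 0.31, and was not called on day 3, at -0.52 ± 0.31 (limma adjusted p = 0.00704 and 0.252). CR392039.1 stood at 481 and 289 TPM on day 0, 241 and 151 on day 3, and 235 and 119 on day 5. MIR3648-2 ranged from 8.18 to 183 TPM in the 6 SNE libraries, from 1 read to 25 reads. By limma, 0 of 4 genes were called in SNE on day 3, where 15.9% of all genes were called, with 1 at an unadjusted p under 0.05. On day 5, 1 of 4 was lower, where 10.2% of all genes were.

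The cytoplasmic extract had the lowest mean of both long non-coding RNA genes on each day, and FP236383.3 was lower there from day 3. It stood at 106 and 108 TPM on day 0, 28.5 and 34.5 on day 3, and 29.2 and 32.1 on day 5. Both later days lay apart from day 0 and overlapped each other. The differences were -1.74 ± 0.26 and -1.77 ± 0.26 (limma adjusted p = 2.7e-05 and 1.7e-05). FP671120.4 went from 21.7 and 17.7 TPM to 8.96 and 11.5 on day 5, which was not called. The sum of both was lower on both days, at -1.63 ± 0.31 and -1.61 ± 0.31 (limma adjusted p = 4.69e-04 and 4.5e-04). CR392039.1 stood at 231 and 198 TPM on day 0, from 16 reads in each library, and at 26.5 and 71.5 on day 5, from 2 and 6. MIR3648-2 had at most 2 reads in any CE library. By limma, 1 of 4 genes was lower on day 3 and 1 on day 5, where 9.66% and 9.98% of all genes were called lower.

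In the membrane extract FP236383.3 was lower on day 5, and on day 3 its call depended on the scaling. It stood at 172 and 203 TPM on day 0, 75.4 and 85.8 on day 3, and 88.8 and 50.3 on day 5. The differences were -1.21 ± 0.26 and -1.47 ± 0.26 (limma adjusted p = 1e-03 and 1.25e-04), and with a common median the day 3 difference was -0.94, short of the required size. The sum of both long non-coding RNA genes was likewise not called on day 3, at -0.98 ± 0.31, and was lower on day 5, at -1.73 ± 0.31 (limma adjusted p = 0.0213 and 1.89e-04). CR392039.1 stood at 338 and 436 TPM on day 0, from 22 and 30 reads, at 81.2 and 42.2 on day 3, and at 88.0 and 0 on day 5, from 5 and 0 reads. Its fitted difference of -5.35 ± 1.20 on day 5 was called (limma adjusted p = 0.00142), and since 1 library was at 0 its size depends on the pseudocount. With ME libraries alone in the fit that call was lost (limma adjusted p = 0.0916), and without the library at 0, replicate 2, the difference was -2.11 (limma adjusted p = 0.0485). Without replicate 1 of day 5 it was -8.59. With ME libraries alone in the fit FP671120.4 was not called on day 5 either (limma adjusted p = 0.144). In the main fit it was called lower on day 5 at -2.05 ± 0.67 (limma adjusted p = 0.0221). That call was lost without replicate 2 of day 0 ME, whose level was 190 TPM, and without replicate 2 of day 5 ME (limma adjusted p = 0.537 and 0.239). MIR3648-2 was called lower on day 3, from 5 and 19 reads on day 0 to 1 and 0, and that call was lost without either day 0 library or without replicate 2 of day 3 (limma adjusted p = 0.0511, 0.239 and 0.303).

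By limma, 2 of 4 genes were lower in ME on day 3 and 3 of 4 on day 5, where 9.68% and 8.66% of all genes were called lower. The CE and ME comparisons were added after the data had been seen. In ME the mitochondrial mRNA MT-ND2 went from 42967 TPM on day 0 to 31216 on day 5 and GAPDH from 997 to 2038. The part of this shift in the members' falls was not tested.

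Whether an extract changed differently from unfractionated RNA was tested directly, as the change in the extract minus the change in INPUT. The levels in this test also took part in the choice of the genes, which its p-values do not allow for. For FP236383.3 in PE this was -1.73 ± 0.36 on day 3 and -3.42 ± 0.36 on day 5 (limma adjusted p = 0.00155 and 5.51e-07). For FP671120.4 in PE it was -3.42 ± 0.94 on day 5 (limma adjusted p = 0.00743), a call that was lost with weights by kind (limma adjusted p = 0.218). The sum of both gave -1.79 ± 0.44 and -3.33 ± 0.44 on days 3 and 5 (limma adjusted p = 0.00542 and 9.65e-06). MIR3648-2 and CR392039.1 gave -4.89 ± 2.14 and -3.98 ± 1.69 on day 5 and were not called (limma adjusted p = 0.0811 and 0.0724). By limma, 1 of 4 genes in PE on day 3 and 2 of 4 on day 5 were lower relative to INPUT, where 0.995% and 2.58% of all genes were called lower.

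In CE and ME the same test called FP236383.3 alone, at -1.67 ± 0.36 and -1.58 ± 0.36 in CE on days 3 and 5 and at -1.14 ± 0.36 and -1.28 ± 0.36 in ME (limma adjusted p = 0.00392, 0.0283, 0.0393 and 0.0402). Lower calls among all genes were 5.62% and 0.841% in CE and 6.45% and 0.817% in ME. The CE call on day 5 and the ME call on day 3 were lost without any 1 of the 8 libraries involved, and the ME call on day 5 without 7 of the 8. After scaling all libraries to a common median, all 4 of these calls were lost (limma adjusted p = 0.116 and 0.183 in CE, 0.194 and 0.0653 in ME). For the sum of both long non-coding RNA genes, the test called CE on day 3 (-1.74 ± 0.44) and ME on day 5 (-1.64 ± 0.44), and did not call CE on day 5 (-1.52 ± 0.44) or ME on day 3 (-1.10 ± 0.44). Their limma adjusted p were 0.0125, 0.0314, 0.0899 and 0.120 in that order. In SNE and CBNE, 0 of 4 genes were called by limma on either day, against 4.96% and 1.85% of all genes in SNE and 11.5% and 14% in CBNE, and on days 3 and 5 an unadjusted p under 0.05 was reached by 0 and 1 genes in SNE and by 1 and 0 in CBNE.

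PolyA-selected RNA of day 0 held little of any of the genes. FP236383.3 stood at 0.871 and 0.277 TPM in the cytoplasm and at 3.14 and 1.10 in the nucleus, so the nuclear libraries were the higher. The log2 difference of 0.93 ± 0.38 was not called (limma adjusted p = 0.0684, with 2 residual degrees of freedom). FP236383.3 passed the filter of 1 TPM only through the 2 nuclear libraries, so nothing is read from this test. FP671120.4 was at most 0.143 TPM, and MIR3648-2 and CR392039.1 were listed at 0 in all 4 polyA libraries. By limma, 0 of the 1 gene that could be tested was called, also at an unadjusted p under 0.05, against 36.3% of all 16667 genes.

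The proteins that make and process pre-rRNA were compared in INPUT. None of 16 tested genes of the RNA polymerase I machinery was called by limma on day 3, on day 5 or between them, with 3, 4 and 5 at an unadjusted p under 0.05, which 24.5%, 32.1% and 20.2% of all genes reached. Their median difference was -0.26 from day 0 to day 5, against -0.08 over all genes, and the lowest was that of POLR1B, the second largest subunit, at -1.05 ± 0.44 (limma adjusted p = 0.0917). Of 37 genes of pre-rRNA processing proteins, 1 was lower on day 5, where 6.67% of all genes were, and none on day 3, and the median difference on day 5 was -0.52. The called gene was NOP56, a core protein of box C/D small nucleolar RNPs, which went from 441 to 213 TPM at -1.05 ± 0.19 (limma adjusted p = 2.35e-04). Among the same 37 genes, 36 lay below 0 on day 5, as did 55.1% of all genes, and 14 had a limma adjusted p under 0.05 without regard to size, as did 23.9% of all genes.

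Small RNAs of pre-rRNA cleavage were detected for 5 of 16 listed genes. SNORD3A, a U3 gene, stood at 1821 ± 98 TPM (SD, n = 2) in day 0 INPUT, 123312 ± 6562 in day 0 CBNE and 88683 ± 7240 in day 0 PE. In PE it stood at 21687 ± 3013 on day 3 and 13187 ± 4054 on day 5, and in day 5 CBNE at 197915 ± 19907. Its INPUT level was 1848 ± 35.8 TPM on day 5. SNORD13, another small nucleolar RNA of pre-rRNA processing, was listed at 0 in CBNE on all 3 days and stood at 145 TPM in day 0 INPUT. In day 0 CBNE, 1 read on a 1 kb transcript was worth 33.7 to 39.3 TPM, and on a shorter gene more. A level like that in INPUT could therefore be missed there. The values show only that SNORD13 did not reach the CBNE levels of SNORD3A. RNA5-8SN1 in PE stood at 831 and 806 TPM on day 0 and at 175 and 22.02 on day 5, from 1 to 5 reads on these 2 days.

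Across the 18 group means, Pearson's r between pairs of the 4 genes on log2(TPM + 1) ran from 0.949 to 0.992, the highest between the long non-coding RNA genes, which share their sequence. All groups share the contrast of CBNE and PE with the rest, so these values describe that contrast. Among 15777 genes at 10 TPM or more in a group, the pattern most like FP236383.3 was that of BX255925.1, a long non-coding RNA gene (r = 0.977). Next came AL031602.1, AC005258.1, the gene of the zinc finger protein ZBTB7A, and the U3 gene SNORD3C, at 0.970. FP671120.4 was most like AL031602.1 (r = 0.980). MIR3648-2 and CR392039.1 were both most like AC092296.2, another long non-coding RNA gene, at r = 0.957 and 0.985. AC092296.2 reached 146 TPM in its highest group, far under the level of either gene.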

How the data were processed

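The values deposited by the authors are TPM, in which reads are divided by gene length and then by the library's sum. Column sums of 989513 to 998559 in total RNA gave the unit. The submitters' processing notes name hg38 as the build and list Salmon 1.3.0, featureCounts 1.6.2, GATK and HISAT2 2.0.5 with no role for any. How the authors' tools handled reads of identical genes is not given in the sources used here. Because TPM is relative, a rise of other RNA lowers it.

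The members, lists and tests were chosen with earlier results of these data known. Gene names changed between annotations, so all genes were matched by identifier to GENCODE 29, whose models may differ from those the authors used. The named genes were the 4 members, other genes in the units, called genes of 2 lists in INPUT, small RNAs of pre-rRNA cleavage, and the 5 genes of most similar pattern.

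Tests ran on log2(TPM + 1) for genes that reached 1 TPM in 2 libraries, in limma 3.58.1 (R 4.3.3) with a mean for each group, a trended, robust variance prior and 18 residual degrees of freedom, over all 36 libraries. The fit was tested on simulated data, where pooling the spread over all kinds called more unchanged genes in PE than a fit of PE alone, and the latter missed more changed genes. Weights by kind called fewer unchanged genes there than pooling did, and more than PE alone. They missed slightly more changed genes than pooling and far fewer than PE alone. PE calls are therefore given under both and under weights by kind. Comparisons in CE and ME, differences of changes from INPUT, the sum of both long non-coding RNA genes and weights by kind were chosen after seeing the data. Alternatives were pseudocounts of 0.1 and 10, no filter, other scalings, libraries of 1 kind only, a replicate block, and leaving out each library.

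Read numbers were rebuilt. The commonest product of TPM and length in a library was taken as 1 read. For MIR3648-2 and CR392039.1 this gave whole numbers (within 0.01) in 36 of 36 libraries. For the long non-coding RNA genes it gave fractions, and their read numbers are rounded. The sequence of MIR3648-2 is not reported here.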

Additional observations from a re-analysis of the deposited data

Results flagged for a closer look

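These 7 changes between days differed between an extract and unfractionated RNA in the direct test of that difference. All are falls relative to INPUT on the log2(TPM + 1) scale, by limma with adjusted p-values over all genes. FP236383.3 differed in PE by -1.73 on day 3 and -3.42 on day 5, and FP671120.4 in PE by -3.42 on day 5. FP236383.3 also differed in CE by -1.67 on day 3 and -1.58 on day 5, and in ME by -1.14 on day 3 and -1.28 on day 5. The comparisons of both days share their day 0 libraries, and all of them share INPUT. The genes had been chosen by levels that include these libraries, which the p-values do not allow for. Both PE values of FP236383.3 were called under every alternative that was run, with adjusted p of at most 0.0221 on day 3 and 5.76e-05 on day 5. The PE value of FP671120.4 was not called with weights by kind (limma adjusted p = 0.218). For the sum of both genes, which are identical in sequence, the CE value on day 5 and the ME value on day 3 were not called (limma adjusted p = 0.0899 and 0.120).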

How the results depend on the processing

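The counts of called genes in INPUT, SNE and polyA RNA, and in CBNE outside the omission of a library, were the same under each alternative run. Scaling to a common median gave 2 calls in PE on day 3, 1 in ME on day 3, and 0 relative to INPUT in CE and ME on both days. Libraries of the same kind only gave 2 calls in CE on both days, 2 in PE on day 3 and 1 in ME on day 5. Weights by kind, chosen after seeing the data, gave 1 call in PE on day 5, 2 in CE on day 5, and, relative to INPUT, 1 in PE and 2 in ME on day 5. A pseudocount of 10 gave 2 calls in PE on day 3, 4 relative to INPUT in PE on day 5, and 0 relative to INPUT in CE and ME on day 5. No filter gave 1 call in ME on day 3 and 0 relative to INPUT in ME on both days. Quantile normalisation gave, relative to INPUT on day 5, 0 calls in CE, 2 in ME and 1 in SNE. Totals without mitochondrial-encoded genes gave 2 relative to INPUT in ME on day 5, a mean summed share of 0.0836% in INPUT (main 0.0659%) and 0.0856% in ME (main 0.0365%). Without FP236383.3 the share was 6.75% in CBNE and 0.0483% in INPUT.

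Leaving out 1 library gave 0 to 1 calls in CBNE on day 3, 1 to 2 in ME on day 3, 2 to 3 in ME on day 5, 1 to 2 in PE on day 3, and 3 to 4 in PE on day 5. Relative to INPUT it gave 1 to 2 in PE on day 3, 0 to 0 in CE on day 5, 0 to 0 in ME on day 3, and 0 to 2 in ME on day 5. No value that was called in the main fit changed sign. Uncalled values that changed sign did so under quantile normalisation (CR392039.1 in PE on day 3, 0.37; FP236383.3 in INPUT on day 3, 0.022; FP671120.4 in SNE on day 3, 0.16), under a common median (CR392039.1 in INPUT between days 3 and 5, 0.035; FP671120.4 in SNE on day 3, 0.24) and without mitochondrial-encoded genes (FP671120.4 in SNE on day 3, 0.063). On leaving out 1 library, CR392039.1 ran from -0.041 to 1.81 in CBNE on day 3, -0.48 to 0.17 in INPUT on day 3 and -0.35 to 0.31 between days 3 and 5, and FP236383.3 from -0.14 to 0.012 in INPUT on day 3. FP671120.4 ran from -0.65 to 1.47 in INPUT on day 3, -1.24 to 0.89 between days 3 and 5, -1.64 to 1.08 in ME on day 3 and -0.33 to 0.21 in SNE on day 3. MIR3648-2 ran from -0.76 to 2.47 and -0.83 to 2.39 in CE on days 3 and 5, -3.76 to 1.26 and -1.54 to 1.16 in INPUT on days 3 and 5, -1.45 to 3.57 between days 3 and 5, and -1.21 to 3.12 and -1.30 to 0.90 in SNE on days 3 and 5. The cause of these changes was not tested.

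Replicate numbers share only a number in the labels. The correlation of same-numbered deviations lay between -0.03 and 0.04 over the comparisons. The fit with a replicate block changed no call, with 4 genes called in PE on day 5 and 1 on day 3. Without either nuclear polyA library FP236383.3 fell under the filter and gave no value.

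Scaling moved the split of all genes called in PE on day 5 from 7710 higher and 1716 lower to 3597 and 3935 under quantile normalisation, and to 6074 and 2115 under a common median. Depth limits MIR3648-2 and CR392039.1 most, since many of their CE, ME and SNE values rest on fewer than 10 reads. In INPUT, CR392039.1 had 15 to 30 reads and MIR3648-2 had 1 to 34.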
